A study of Homo sapiens with 6 samples.

Results

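The products of 10 genes described here build or bind the basement membrane. They are COL4A1, COL4A2, COL4A5, LAMA4, LAMB1, LAMC1, NID1, NID2, HSPG2 and SPARC, out of 57232 genes in an RNA-seq table. They were found by gene symbol, and all 10 had a mean of at least 1 FPKM and were among the 10416 genes tested. The set was chosen by the difference between ARID1B and vector libraries, COL4A1 being one of the larger ones, so the levels and changes of the 10 genes are a description and carry no test. The cells were IMR90, a line of human fetal lung fibroblasts, at passage 13. The 3 ARID1B libraries came from cells infected with ARID1B cDNA, which encodes a subunit of the SWI/SNF chromatin remodeling complex, and the 3 vector libraries came from cells infected with an empty vector. Both groups were selected with puromycin until day 4, had their medium changed on that day and were collected 6 days after infection. All libraries are of 1 cell line, and the 3 of each group are described as biological replicates. Whether they came from separate infections was not established here, so the errors given cover the spread between these libraries.

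Basement membranes are thin sheets of matrix that lie under epithelia and endothelia and around muscle and nerve. Laminin trimers and type IV collagen trimers each form a network, and nidogens and the heparan sulfate proteoglycan perlecan hold the networks together. In the lung, fibroblasts lie close to the basement membrane of the airways and alveoli and secrete several of its components. SPARC binds collagens outside the cell, and enzymes, receptors and proteases modify, bind or cleave these proteins.

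COL4A1 and COL4A2, which encode the chains of the most widespread type IV collagen, are neighbors on chromosome 13 and are read in opposite directions from starts 127 bases apart in RefSeq (GRCh38.p14). Their promoter windows, from 250 bases before to 50 bases after each start, share 226 bases. Both are printed here because COL4A1 had the largest change of the set in every fit made here, and because the windows show how little sequence separates the pair. Each is read 5′ to 3′ on the strand of its gene, with COL4A1 at chr13:110307108-110307407 on the minus strand and COL4A2 at chr13:110307034-110307333 on the plus strand. Capitals mark the letters CCAAT and GGGCGG on either strand, so that ATTGG and CCGCCC are capitals too.
COL4A1: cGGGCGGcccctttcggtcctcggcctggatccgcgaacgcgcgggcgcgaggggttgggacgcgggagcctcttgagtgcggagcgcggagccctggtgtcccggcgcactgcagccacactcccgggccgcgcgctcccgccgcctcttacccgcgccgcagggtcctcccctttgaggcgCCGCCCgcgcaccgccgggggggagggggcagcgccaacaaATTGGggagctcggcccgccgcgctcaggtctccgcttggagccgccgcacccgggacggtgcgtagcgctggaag
COL4A2: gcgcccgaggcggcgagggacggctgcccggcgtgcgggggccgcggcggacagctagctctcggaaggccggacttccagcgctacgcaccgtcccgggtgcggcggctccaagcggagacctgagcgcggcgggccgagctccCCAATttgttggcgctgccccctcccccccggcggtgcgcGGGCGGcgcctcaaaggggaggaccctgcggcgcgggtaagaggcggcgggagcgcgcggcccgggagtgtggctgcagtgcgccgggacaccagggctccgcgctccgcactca
The single CCAAT lies in the shared stretch and appears as ATTGG on the COL4A1 strand. All 10 genes had a promoter in the RefSeq table. CCAAT was found in 5 of the 10 windows and in 34.6% of 35116 windows of the same length, GGGCGG in 7 of 10 and in 45.0%, and TGANTCA, searched on both strands as well, in 0 of 10 and in 7.71%. Overlapping matches were counted once each. The CCAAT and a GGGCGG of the shared stretch were counted for both COL4A1 and COL4A2. These are matches of letters and do not show that a factor binds there.

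The ectopic gene itself, ARID1B (ENSG00000049618), stood at 32.5, 21.0 and 28.3 FPKM in ARID1B replicates 1, 2 and 3, against 2.29, 1.31 and 2.05 FPKM in vector replicates 1, 2 and 3, which fits the labels. FPKM is the number of fragments on a gene scaled by a gene length and the depth of the library. Levels can be compared between genes only as far as that length fits the transcripts present. The length recovered from the values was 19372 bases for LAMA4, against 6547 bases for its longest transcript. For COL4A5 these lengths were 12227 and 6483 bases, and for NID1 they were 6119 and 5864 bases. Library totals recovered from the steps of low values lay between 63386813 and 91924514 reads or fragments. The 10 genes held from 1710 reads (COL4A5) to 150538 reads (SPARC) per library, for which counting error is at most 2.42% of a value. Vector replicate 2 stood apart, at 48.5 on the principal component that held 63.8% of the variance, against -19.96 to 3.63 for the other libraries. It gave the lowest of the 6 values for all 10 genes, beside 37.5% of all genes tested. Replicate 3 lay between replicates 1 and 2 of its group for 7 of the 10 genes in the ARID1B group and for all 10 in the vector group, beside 69.2% and 85.0% of all genes. Among genes over 2-fold apart between replicates 1 and 2, replicate 3 had a median position of 73.8% of the way to replicate 1 for ARID1B (488 genes) and 81.9% for vector (2429 genes), so replicates 3 may not be independent of the others. All 9 fibroblast markers had a mean of at least 1 FPKM, with sums of 1912 to 2667 FPKM in ARID1B libraries and 1947 to 2631 FPKM in vector libraries. Of 7 endothelial markers 6 were in the table under their symbols, with sums of 1.89 to 3.66 FPKM in ARID1B libraries and 0.968 to 3.74 FPKM in vector libraries, and CDH5 and ERG were listed at 0 in every library. Most of these sums was TEK, at 1.72, 3.48 and 2.23 FPKM in ARID1B replicates 1, 2 and 3. It was at 3.31, 0.802 and 2.85 FPKM in vector replicates 1, 2 and 3. The 8 epithelial markers summed to 13.1 to 20.3 FPKM with ARID1B and 10.8 to 23.9 FPKM with vector, with KRT5, SFTPC and NKX2-1 listed at 0 in every library. Most of these sums was KRT18 (4.35 to 12.4 FPKM over the 6 libraries) and KRT19 (3.84 to 14.3 FPKM). The 7 smooth muscle and pericyte markers summed to 106 to 164 FPKM with ARID1B and 84.0 to 124 FPKM with vector, and their part in the results was not tested. The 7 blood cell markers summed to 0.0394 to 0.0631 FPKM with ARID1B and 0.0450 to 0.0819 FPKM with vector, CD3E being at 0 throughout.

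Of the type IV collagen chains tested, COL4A1 and COL4A2 had groups that did not overlap and COL4A5 had groups that did. COL4A1 (ENSG00000187498) stood at 88.4, 97.4 and 91.0 FPKM in ARID1B replicates 1, 2 and 3, against 36.8, 25.3 and 34.6 FPKM in vector replicates 1, 2 and 3. Every ARID1B value was more than double every vector value, and the means were 92.3 ± 4.62 FPKM for ARID1B and 32.2 ± 6.10 FPKM for vector (SD, n = 3 each), a ratio of 2.86. COL4A2 (ENSG00000134871) had 93.8, 107 and 93.1 FPKM in ARID1B replicates 1, 2 and 3, against 61.2, 55.9 and 61.2 FPKM in vector replicates 1, 2 and 3. Its groups did not overlap either, at 97.8 ± 7.61 FPKM for ARID1B and 59.4 ± 3.03 FPKM for vector (SD, n = 3 each), a ratio of 1.65. On the log2(FPKM + 1) scale used for all changes below, which understates the change of low genes, COL4A1 was higher by 1.51 (standard error 0.17) and COL4A2 by 0.71 (standard error 0.12). In bulk libraries more RNA per cell and more cells that express a gene cannot be told apart.

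The pair did not change in proportion, although the encoded chains join in 1 trimer. The ratio of COL4A1 to COL4A2 in FPKM was 0.943, 0.914 and 0.978 in ARID1B replicates 1, 2 and 3, against 0.601, 0.452 and 0.566 in vector replicates 1, 2 and 3. COL4A1 thus stood at nearly the level of COL4A2 in ARID1B libraries, with a ratio of 0.945 ± 0.0321, and well under it in vector libraries, with a ratio of 0.540 ± 0.0778 (SD, n = 3 each). FPKM divides by a gene length that merges transcripts, so the ratio is one of gene levels and not of chains.

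COL4A5 (ENSG00000188153), which encodes a chain of a second kind of type IV collagen known from kidney, muscle and skin, showed another pattern. It was at 5.56, 8.99 and 6.68 FPKM in ARID1B replicates 1, 2 and 3, against 7.63, 1.54 and 6.58 FPKM in vector replicates 1, 2 and 3. The groups overlapped, and 5 of the 6 values lay between 5.56 and 8.99 FPKM with vector replicate 2 far under them. Its log2 change was 0.53 (standard error 0.47) with all libraries and -0.02 (standard error 0.19) without vector replicate 2. Without that library the vector group is replicates 1 and 3, which may not be independent, so standard errors of that fit may be too small.

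**Figure D1:**
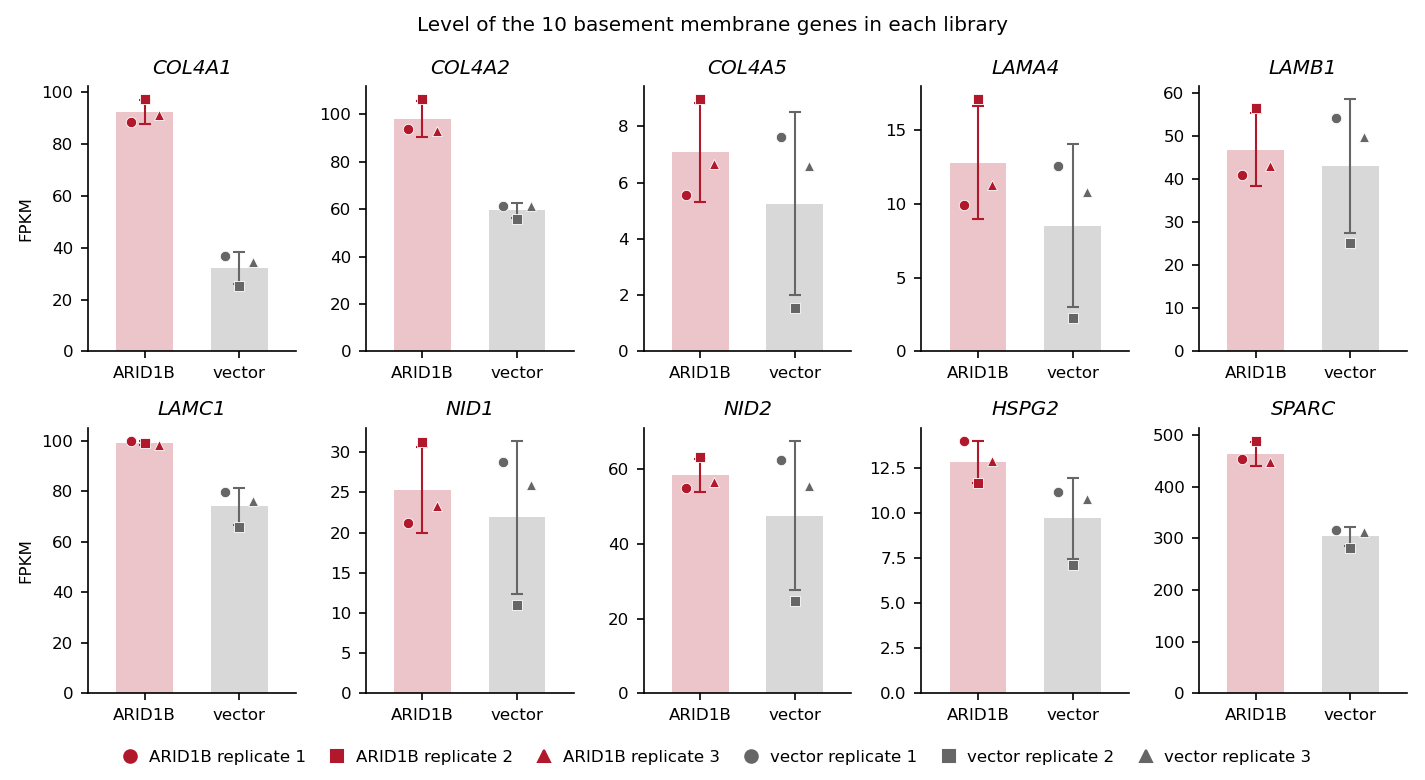
FPKM of the 10 genes in each library on linear axes, with ARID1B in red on the left and vector in gray on the right of each panel, with a bar at the mean of 3 libraries, whiskers for the SD and the replicate number as marker shape. The groups are apart for COL4A1, COL4A2, LAMC1, HSPG2 and SPARC, narrowly for HSPG2, and overlap for the other genes. Vector replicate 2 (gray square) lies lowest for all 10 genes.

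Laminin genes divided in the same way. LAMC1 (ENSG00000135862), which encodes the gamma chain found in most laminins, had 100.02, 99.1 and 98.1 FPKM in ARID1B replicates 1, 2 and 3, against 79.8, 65.9 and 76.1 FPKM in vector replicates 1, 2 and 3. The groups did not overlap, the ARID1B values lay within 2 FPKM of each other, and the log2 change was 0.42 (standard error 0.12). LAMB1 (ENSG00000091136), a beta chain, had 40.9, 56.6 and 43.0 FPKM in ARID1B replicates 1, 2 and 3, against 54.2, 25.2 and 49.9 FPKM in vector replicates 1, 2 and 3. Vector replicates 1 and 3 were above ARID1B replicates 1 and 3, so the small log2 change of 0.18 (standard error 0.31) turned to -0.16 (standard error 0.16) without vector replicate 2. LAMA4 (ENSG00000112769), the alpha chain of laminins made by endothelial and mesenchymal cells, had 9.91, 17.1 and 11.3 FPKM in ARID1B replicates 1, 2 and 3, against 12.5, 2.24 and 10.8 FPKM in vector replicates 1, 2 and 3. It had the widest range of the 10 genes relative to its level, and its log2 change of 0.74 (standard error 0.56) became 0.09 (standard error 0.23) without vector replicate 2. The 3 chains, which can join in 1 laminin trimer, therefore did not share 1 pattern over the 6 libraries.

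The linkers followed LAMB1 and COL4A5 for the nidogens and lay nearer to LAMC1 for perlecan. NID1 (ENSG00000116962), which binds laminin and type IV collagen, had 21.3, 31.3 and 23.4 FPKM in ARID1B replicates 1, 2 and 3, against 28.8, 11.004 and 26.0 FPKM in vector replicates 1, 2 and 3. Its order of the 6 libraries was that of LAMB1, with ARID1B replicate 2 on top and vector replicate 2 at the bottom. NID2 (ENSG00000087303), the other nidogen, had 55.1, 63.2 and 56.7 FPKM in ARID1B replicates 1, 2 and 3, against 62.4, 24.8 and 55.6 FPKM in vector replicates 1, 2 and 3. Its order was that of COL4A5 and LAMA4, and 5 of its values lay between 55.1 and 63.2 FPKM. The log2 changes were 0.29 (standard error 0.37) for NID1 and 0.39 (standard error 0.34) for NID2, and -0.12 (standard error 0.17) and -0.02 (standard error 0.10) without vector replicate 2. HSPG2 (ENSG00000142798), which encodes perlecan, had 14.0, 11.7 and 12.9 FPKM in ARID1B replicates 1, 2 and 3, against 11.2, 7.10 and 10.8 FPKM in vector replicates 1, 2 and 3. The groups did not overlap but nearly touched, and the log2 change of 0.39 (standard error 0.18) became 0.20 (standard error 0.095) without vector replicate 2.

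SPARC (ENSG00000113140), a secreted protein that binds collagens, type IV among them, was the most abundant of the set. It had 454, 489 and 447 FPKM in ARID1B replicates 1, 2 and 3, against 316, 281 and 313 FPKM in vector replicates 1, 2 and 3. The groups were well apart, at 463 ± 22.6 FPKM for ARID1B and 304 ± 19.3 FPKM for vector (SD, n = 3 each), and the log2 change was 0.61 (standard error 0.12), or 0.56 (standard error 0.095) without vector replicate 2.

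**Figure D2:**
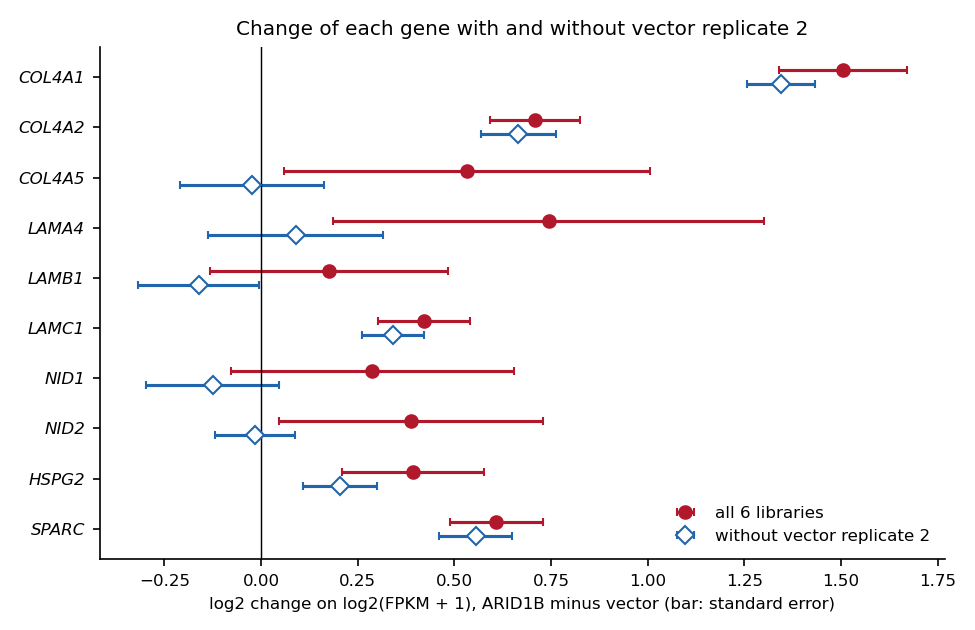
Log2 change of each gene between ARID1B and vector on log2(FPKM + 1), with bars for the standard error, from all 6 libraries (red circles) and without vector replicate 2 (blue diamonds). COL4A1 stays at 1.35, COL4A2 at 0.67, SPARC at 0.56 and LAMC1 at 0.34 without that library, while COL4A5, LAMB1, NID1 and NID2 turn to values from -0.16 to -0.02.

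By level in FPKM, which depends on the gene length used, SPARC led in both groups. For LAMA4, LAMB1, COL4A5, NID2 (8229 against 4811 bases) and HSPG2 (21342 against 14327 bases) that length was well above the longest transcript. By a smaller factor it was also above it for COL4A2 (8958 against 6494 bases), COL4A1 (8580 against 6616 bases) and LAMC1 (9617 against 7889 bases). The places of all these genes in the order are therefore less certain. In ARID1B libraries LAMC1 (99.1 ± 0.945 FPKM), COL4A2 (97.8 ± 7.61 FPKM) and COL4A1 (92.3 ± 4.62 FPKM; SD, n = 3) came next, with ranges that overlapped between neighbors. NID2 (58.3 ± 4.30 FPKM) and LAMB1 (46.8 ± 8.53 FPKM) overlapped too, as did HSPG2 (12.8 ± 1.17 FPKM) and LAMA4 (12.8 ± 3.82 FPKM), with NID1 (25.3 ± 5.29 FPKM) between these pairs and COL4A5 (7.07 ± 1.75 FPKM) last. In vector libraries the means ran in the order LAMC1 (74.0 ± 7.23 FPKM), COL4A2 (59.4 ± 3.03 FPKM), NID2 (47.6 ± 20.03 FPKM), LAMB1 (43.1 ± 15.6 FPKM), COL4A1 (32.2 ± 6.10 FPKM), NID1 (21.9 ± 9.54 FPKM), HSPG2 (9.69 ± 2.25 FPKM), LAMA4 (8.52 ± 5.51 FPKM) and COL4A5 (5.25 ± 3.25 FPKM). The ranges of COL4A2 and NID2 overlapped there, as did those of NID2, LAMB1 and COL4A1. From COL4A1 down, the range of each gene also overlapped that of the next gene in the order. By mean, COL4A1 thus ranked above NID2 and LAMB1 in ARID1B libraries and below both in vector libraries. In vector replicate 2 alone it was at 25.30 FPKM, just above LAMB1 (25.23 FPKM) and NID2 (24.80 FPKM).

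Across the whole table, limma on log2(FPKM + 1) called 0 of the 10 genes at an adjusted p under 0.05, beside 0.0288% of all genes called higher and 0% called lower. At an unadjusted p under 0.05, 4 of the 10 (COL4A1, COL4A2, LAMC1 and SPARC) were higher, beside 4.64% of all genes, and 0 were lower, beside 5.94%. The groups did not overlap for 5 of the 10 genes, all higher with ARID1B, beside 9.44% of all genes higher and 11.1% lower without overlap. Without vector replicate 2, limma called 3 of the 10 higher (COL4A1, COL4A2 and SPARC), beside 1.2% of all genes, and 0 lower, beside 1.91%. That fit kept vector replicates 1 and 3, which may not be independent, so its adjusted p may be too small. The median log2 change of the 10 genes was 0.48 with all libraries and 0.15 without vector replicate 2, against -0.02 and -0.01 over all genes. Because the set was chosen with this comparison known, nothing is read from these counts.

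The members' transcripts were long, at a median of 6489 bases against 3614 bases for all genes tested, and all 10 were above that median. Their GC content had a median of 51.3% against 47.8%. Across 10195 genes the log2 change had a Spearman's rho of -0.55 with GC content and 0.40 with transcript length, and these were -0.27 and 0.02 without vector replicate 2. After a correction for both, the log2 change was 1.52 (standard error 0.13) for COL4A1, 0.83 (standard error 0.13) for COL4A2, 0.56 (standard error 0.099) for SPARC, 0.51 (standard error 0.11) for HSPG2 and 0.30 (standard error 0.086) for LAMC1. COL4A1 was then past the threshold of limma as 1 of 5 genes in the table. This is no test of COL4A1, since the set was chosen by this difference. With the replicate block added to the correction, 0 of the members were called.

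The libraries with the lowest and highest levels of the nidogens, LAMA4, LAMB1 and COL4A5 also differed in genes of dividing cells, a list of 10 such genes (among them MKI67, TOP2A and CCNB1) that was added after seeing the data. Their summed level was 131, 66.7 and 118 FPKM in ARID1B replicates 1, 2 and 3, against 52.1, 162 and 67.7 FPKM in vector replicates 1, 2 and 3. The sum was highest in vector replicate 2, where the basement membrane genes were lowest, and lower in ARID1B replicate 2 than in the other ARID1B libraries. Of the 10 markers 8 were highest in vector replicate 2, while MKI67 (9.73 and 8.14 FPKM in ARID1B replicates 1 and 3, against 6.49 FPKM in vector replicate 2) and TOP2A (22.9 and 22.04 FPKM, against 15.6 FPKM) were not. Among the ARID1B libraries, replicate 2 had the highest level of 8 of the 10 basement membrane genes, all but LAMC1 and HSPG2. The part of these markers in the results was not tested.

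**Figure D3:**
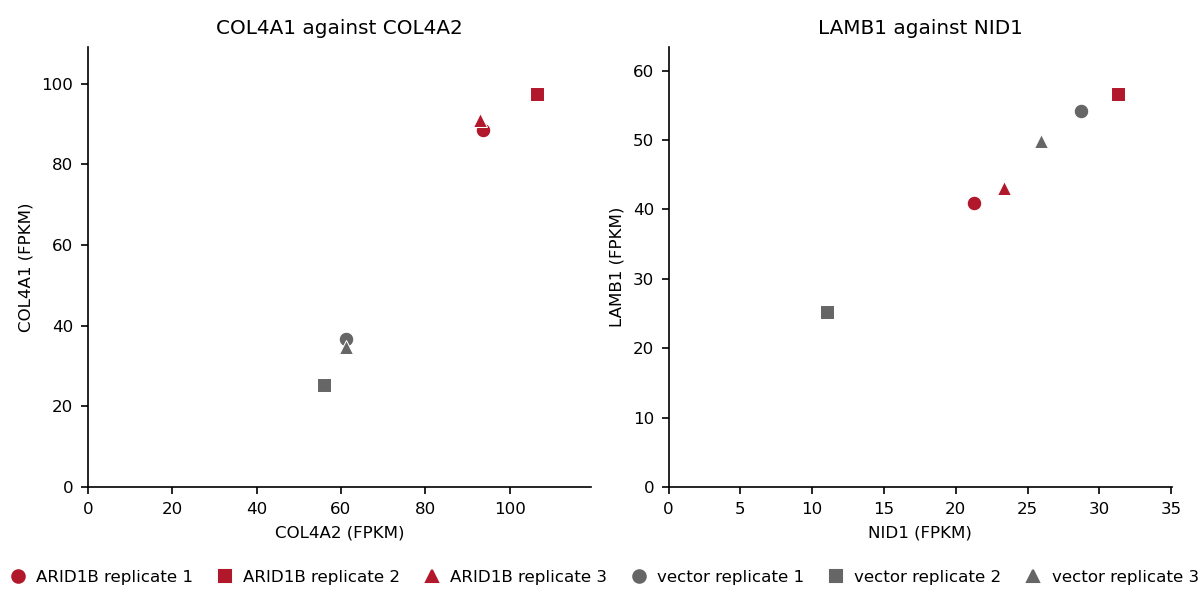
FPKM of COL4A1 against COL4A2 (left) and of LAMB1 against NID1 (right), 1 point per library, with ARID1B in red, vector in gray and the replicate number as the marker shape. On the left the 3 ARID1B libraries form a group at 88.4 to 97.4 FPKM of COL4A1, far from the vector libraries at 25.3 to 36.8 FPKM, while on the right both groups lie along 1 line in the same order for both genes.

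The 5 genes with a pattern over the 6 libraries most like that of COL4A1 were FSTL1, MYO1E, ZFPM2, USP47 and PIP5K1A, with a Pearson's r on log2(FPKM + 1) from 0.998 to 0.996 (n = 6 libraries, which share the split into groups). FSTL1, a secreted protein of the SPARC family, stood at 171 ± 7.65 FPKM with ARID1B and 96.3 ± 7.89 FPKM with vector (SD, n = 3 each), which is 0.83 higher on the log2 scale (standard error 0.12; limma's adjusted p = 0.165). All 5 were higher in the ARID1B libraries with no overlap, as the likeness to COL4A1 requires.

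Changes of the other structural genes of the basement membrane were mostly negative and none passed the test. Of the other type IV collagen chains, COL4A3 was listed at 0 in all libraries, COL4A4 was at 0.0093 FPKM or less, and COL4A6, which lies beside COL4A5 on the X chromosome, was at 0.552, 1.38 and 0.748 FPKM in ARID1B replicates 1, 2 and 3, against 1.28, 0.431 and 1.19 FPKM in vector replicates 1, 2 and 3. None of these 3 was tested, having a mean under 1 FPKM. Of 9 other laminin chains 4 were tested, 0 were called, and 4 had a negative change, with a median of -0.08. The log2 change was -0.15 for LAMA5 (standard error 0.37; limma's adjusted p = 0.890) and -0.11 for LAMA2, the alpha chain of muscle laminin (standard error 0.36; adjusted p = 0.917). Neither had a steady direction, since the change ran from -0.58 without vector replicate 2 to 0.10 over the alternatives for LAMA5 and from -0.50 without that library to 0.12 for LAMA2. At an unadjusted p under 0.05, 0 of the 4 laminin chains were higher or lower, beside 4.64% and 5.94% of all genes. Of 20 other linkers and proteoglycans 7 were tested, 0 were called and 5 had a negative change, with a median of -0.40. COL18A1, the source of the fragment endostatin, was at 16.8, 18.9 and 16.8 FPKM in ARID1B replicates 1, 2 and 3, against 30.7, 25.0 and 31.2 FPKM in vector replicates 1, 2 and 3. It was lower without overlap, with -0.69 on the log2 scale (standard error 0.13; limma's adjusted p = 0.272). FBLN2, a fibulin, had -0.72 (standard error 0.22, adjusted p = 0.363 from limma). COL18A1 and FBLN2, both lower, were the 2 of the 7 at an unadjusted p under 0.05, beside 5.94% of all genes lower and 4.64% higher.

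Genes for the synthesis, export and assembly of type IV collagen, among them enzymes, chaperones and export factors, went both ways, with 11 of 19 tested genes positive, 8 negative and a median of 0.10. Limma called 0 of them, while an unadjusted p under 0.05 was reached by 5 that were higher and 0 that were lower. Of all genes tested, 4.64% were higher and 5.94% lower at that threshold. PLOD2, a lysyl hydroxylase, was at 21.8, 19.0 and 23.9 FPKM in ARID1B replicates 1, 2 and 3, against 10.3, 7.75 and 9.33 FPKM in vector replicates 1, 2 and 3. The groups did not overlap, and the log2 change was 1.16 (standard error 0.15, adjusted p = 0.129 from limma). PXDN, the peroxidase that cross-links type IV collagen, was at 72.1, 68.5 and 70.4 FPKM in ARID1B replicates 1, 2 and 3, against 52.5, 47.3 and 52.3 FPKM in vector replicates 1, 2 and 3. Its log2 change was 0.47 (standard error 0.11, adjusted p = 0.301 from limma), again with groups apart. SERPINH1, the collagen chaperone also known as HSP47 and named here after its values were seen, had one of -0.06 (standard error 0.12).

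Of 12 receptors for basement membrane proteins 11 were tested, 8 were positive and 3 negative, and 0 were called, while an unadjusted p under 0.05 was reached by 3 that were higher and 0 that were lower. ITGA1, the alpha subunit of a collagen receptor that binds type IV collagen, was at 5.21, 10.7 and 6.71 FPKM in ARID1B replicates 1, 2 and 3, against 2.95, 1.73 and 2.72 FPKM in vector replicates 1, 2 and 3. Its groups did not overlap, and the log2 change was 1.26 (standard error 0.26, adjusted p = 0.285 from limma). DAG1, the laminin receptor dystroglycan, had one of 0.48 (standard error 0.16, adjusted p = 0.390). Of 17 genes of turnover 14 were tested, 6 were positive, 8 negative and 0 called. An unadjusted p under 0.05 was reached by 1 that was lower and 0 that were higher. Beside both lists, 4.64% of all genes tested were higher and 5.94% lower at that threshold. The log2 change was -0.33 for MMP14, a membrane-bound protease (standard error 0.14; limma's adjusted p = 0.469), and -0.45 for PLAT, a plasminogen activator (standard error 0.20; adjusted p = 0.495).

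Fibrillar and type VI collagens are given for comparison. Their mean levels ran from COL1A1 (732 FPKM with ARID1B and 738 FPKM with vector) down to COL5A3 (4.34 and 3.71 FPKM). All 9 were tested, 4 were positive, 5 negative and 0 called, with a median of -0.01. At an unadjusted p under 0.05, 0 were higher and 0 lower, beside 4.64% and 5.94% of all genes. The log2 change was 0.59 for COL5A2 (standard error 0.28; limma's adjusted p = 0.515) and -0.38 for COL6A2 (standard error 0.18; adjusted p = 0.532). COL5A2 was higher without overlap, but its change was 0.29 without vector replicate 2. Without that library the medians were -0.28 for these collagens, -0.42 for the other laminin chains, -0.79 for the other linkers, 0.06 for turnover, 0.10 for synthesis and assembly and 0.18 for receptors. The median of the 10 basement membrane genes was 0.15, under that of the receptors. In that fit PLOD2 rose by 1.05 on the log2 scale (limma's adjusted p = 0.0291), and COL18A1 and BCAM, a laminin receptor, fell by 0.79 (adjusted p = 0.0291) and 0.42 (adjusted p = 0.0468). Over all alternatives the adjusted p of each of these 3 genes ran up to 0.999, and BCAM is named because of this fit. Without vector replicate 2, 1.2% of all genes tested were called higher and 1.91% lower. The vector group of that fit was replicates 1 and 3, which may not be independent, so its adjusted p may be too small.

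**Figure D4:**
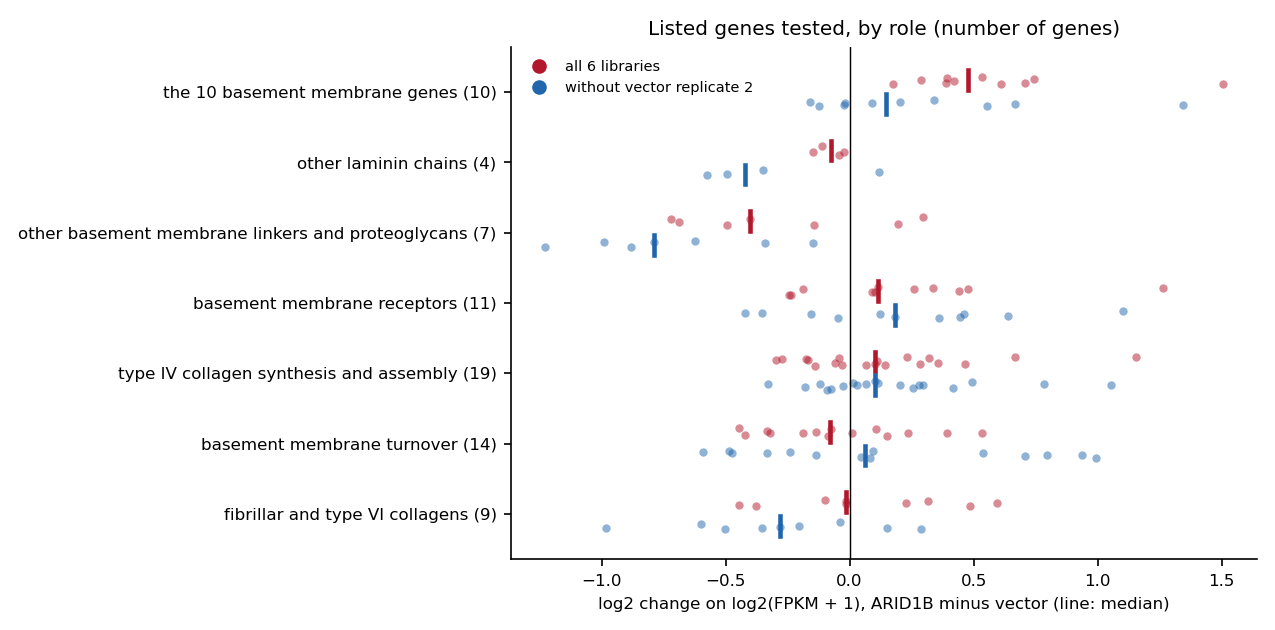
Log2 change of each tested gene (points, spread vertically for visibility) by role, ARID1B minus vector on log2(FPKM + 1), where a line marks the median of each list, from all 6 libraries (red) and without vector replicate 2 (blue). The 10 basement membrane genes, which were chosen by this change, have a median of 0.48 in red and 0.15 in blue, while the other linkers lie at -0.40 and -0.79 and the receptors at 0.11 and 0.18.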

How the data were processed

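RNA-seq of 3 ARID1B and 3 vector cultures of IMR90 was used, with groups and replicate numbers from the sample titles. The authors deposited FPKM for 57232 genes. Per the submitters' processing notes the tools were TopHat2 (2.0.11), HTSeq (0.5.3p9) and DESeq2 and the build hg19, with no role given. The library kit kept strand.

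Steps between low FPKM values gave library totals and reads (tolerance 0.002 reads), using GENCODE release 29 (GRCh38), whose longest transcripts also gave length and GC content. Where all reads of a gene share a divisor they are too low by that factor. Genes averaging at least 1 FPKM were tested by limma 3.58.1 (R 4.3.3) on log2(FPKM + 1), with a trend in the variance, Benjamini-Hochberg adjustment over 10416 genes and a threshold of 0.05. Both steps were tested on simulated data. From each list, genes past the threshold or otherwise the 2 with the smallest p were named, as were the 5 genes most like COL4A1. The members and lists were chosen with earlier results of these data known. Promoters are from RefSeq, and protein sequences were not analysed here. Alternatives were a pseudocount of 0.1, other filters, median-ratio and quantile scaling, no trend, the replicate block, a correction for GC content and length (splines with 5 degrees of freedom each) and libraries left out. Plots were drawn with Python 3.11.15 and matplotlib 3.10.9.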

Additional observations from a re-analysis of the deposited data

How the results depend on the processing

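COL4A1, COL4A2, LAMA4, LAMC1, HSPG2 and SPARC had a positive change in every alternative that could move it, and COL4A5, LAMB1, NID1 and NID2 in all of these but the fit without vector replicate 2. The filters, the variance trend and the replicate block leave a log2 change as it was by construction. COL4A1 ranged from 1.35 to 1.61, COL4A2 from 0.64 to 0.83 and SPARC from 0.56 to 0.76. The median of the 10 genes lay between 0.15 and 0.64 with 1 library left out. The number of genes called higher (3) was 5 with GC content and length corrected for, and 0 with no filter on low values, with the replicate block, with that block and the correction, and without both libraries numbered 3. With 1 library left out it lay between 0 and 125, and that of genes called lower between 0 and 199. The fit with 125 and 199 lacked vector replicate 2 and kept vector replicates 1 and 3, which may not be independent. Among the listed genes of other roles, 0 to 1 were called higher and 0 to 2 lower, and of the 10 genes 0 to 3 were called higher, the upper numbers all without vector replicate 2. The correction called 1 of the 10. The cause was not tested.

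The median of the 10 genes was 0.48 with and without the replicate block, as a balanced block fixes. Over the genes tested, same-numbered libraries tended to deviate from their group means in opposite directions, only weakly for replicates 3. The correlations were -0.46, -0.43 and -0.17 for replicates 1, 2 and 3. Vector replicate 2, which stood apart, weighs on all of these values. Whether same-numbered libraries share a batch was not tested. With 3 libraries a group, a change within the spread of a gene was not detectable.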
